A study of Mus musculus with 6 samples.

Results

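Edaradd and 9 genes that work beside it in ectodysplasin receptor signalling were examined in mouse epidermal keratinocytes in culture. Keratinocytes build the outer layer of the skin. The 10 genes were taken by symbol from a table of 23420 genes: the ligand Eda, the receptors Edar, Eda2r and Tnfrsf19, the adaptor Edaradd, and the signal proteins Traf6, Tab1, Tab2, Map3k7 and Ikbkg. All 10 symbols were present. Messenger RNA had been sequenced in 3 libraries labelled WT, of genotype K14CreERT2-;Gata6 fl/fl, and 3 labelled iKO (induced knockout), of genotype K14CreERT2+;Gata6 fl/fl. Both groups therefore carried loxP-flanked Gata6, a transcription factor gene, and differed by a Cre recombinase that is driven by the keratin 14 promoter and switched on by tamoxifen. Cells of every library were grown in low calcium E medium to passage 8 to 10 and given 4-hydroxytamoxifen at 1 µM for 6 hours. The labels do not say whether the libraries of a group came from separate animals or cultures, so p-values here reflect library-to-library spread, part of which may be technical. The libraries are called WT 2, WT 3, WT 4, iKO 3, iKO 4 and iKO 33 after the numbers of their columns, and the column with the number 33 matches no iKO title.

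Ectodysplasin signalling shapes hair follicles, teeth and sweat glands. Eda is a ligand of the tumour necrosis factor (TNF) family, made as splice forms that differ by a pair of residues: the longer form binds the receptor Edar and the shorter form binds Eda2r. Edar holds the death-domain adaptor Edaradd, which recruits TRAF6 and the TAK1 kinase complex, and these activate the IκB kinase and release NF-κB. Loss of Eda, Edar or Edaradd in mice gives the closely alike phenotypes tabby, downless and crinkled, with missing hair types, and loss of these genes in people causes hypohidrotic ectodermal dysplasia.

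Reads assigned to genes numbered between 21943467 and 83337263 per library. Levels of Gata6, which the design targets, ran counter to the labels: the WT mean was 2.92 ± 2.43 CPM and the iKO mean 17.4 ± 3.44 CPM (SD, n = 3), with no overlap (edgeR adjusted p = 0.180). Every direction below is therefore that of libraries labelled iKO relative to libraries labelled WT. CPM is the count per 1000000 gene counts after TMM scaling, and every log2 fold change is iKO minus WT. The sex-linked transcripts Xist, Kdm5d, Eif2s3y, Ddx3y and Uty separated the groups without overlap, so the sex of the cells and the genotype label cannot be told apart; Eda, Eda2r and Ikbkg lie on the X chromosome, and the other 7 genes do not. The keratinocyte markers were abundant, with a summed level of 33664 to 46607 CPM in the WT libraries and 35526 to 51624 CPM in the iKO libraries, a sum carried mainly by Krt5 and Krt14. Of the 10 keratinocyte markers 5 had positive and 5 negative values, and the groups did not overlap for 2. Trp63, the transcription factor p63 of basal keratinocytes, measured 331, 307 and 323 CPM in WT 2, WT 3 and WT 4 and 203, 191 and 205 CPM in iKO 3, iKO 4 and iKO 33, a log2 fold change of -0.68 (SE 0.10) with adjusted p = 0.0529 in edgeR, 9.65e-09 in DESeq2 and 0.0438 in limma-voom. Cdh1, which encodes E-cadherin, stood at 0.55 (SE 0.12; adjusted p = 0.13 in edgeR and 0.00467 in DESeq2), and Krt15 at -1.28 (SE 0.49, edgeR adjusted p = 0.289) with overlap. The part of these markers in the Edaradd result was not tested. The summed level of 9 fibroblast markers was 1.01 to 3.13 CPM against 1.05 to 4.42 CPM, with Dcn and Lum at 0 in every library. The 7 melanocyte markers summed to 6.08 to 11.9 against 5.69 to 8.47 CPM and the 6 immune markers to 2.13 to 4.30 against 2.91 to 3.58 CPM, with Dct and Cd207 at 0 throughout. The 4 endothelial markers summed to 9.31 to 19.0 CPM in WT and 7.29 to 8.94 CPM in iKO without overlap. The sum rested on Kdr and Pecam1, the 2 that could be tested, whose groups overlapped and which did not pass. Cdh5 had 1 read in iKO 4 and 0 elsewhere, and Tek had 0 to 5 reads per library. The part of the endothelial markers in the results below was not tested. In such bulk libraries fewer cells of a type and less RNA per cell cannot be told apart.

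Edaradd, the adaptor between Edar and the TRAF6 and TAK1 proteins, was at a lower level in all 3 iKO libraries than in any WT library. It measured 14.0 CPM in WT 2, 16.9 CPM in WT 3 and 16.7 CPM in WT 4. In the iKO libraries it measured 6.30 CPM in iKO 3, 8.00 CPM in iKO 4 and 8.55 CPM in iKO 33. The lowest WT library thus stood above the highest iKO library, and the values within each group lay close together. These levels rested on 197 to 1331 reads per library. Its log2 fold change was -1.06 (SE 0.18, 95% interval -1.48 to -0.64), a level 2.08-fold lower, and it missed the threshold of 0.05 over all 12672 tested genes in edgeR's quasi-likelihood test (adjusted p = 0.0727). DESeq2 called it on the same filtered counts (adjusted p = 2.69e-05), and over the other alternatives the adjusted p reached 0.557. An exact two-sided permutation test of log2 CPM gave p = 0.1, the smallest that 3 against 3 libraries allow. With 1 library left out at a time, the log2 fold change lay between -1.15 (without iKO 33) and -0.94 (without iKO 3). Groups failed to overlap for 21.9% of all tested genes, and 2.18% of tested genes had a log2 fold change as low as that of Edaradd or lower.

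**Figure D1:**
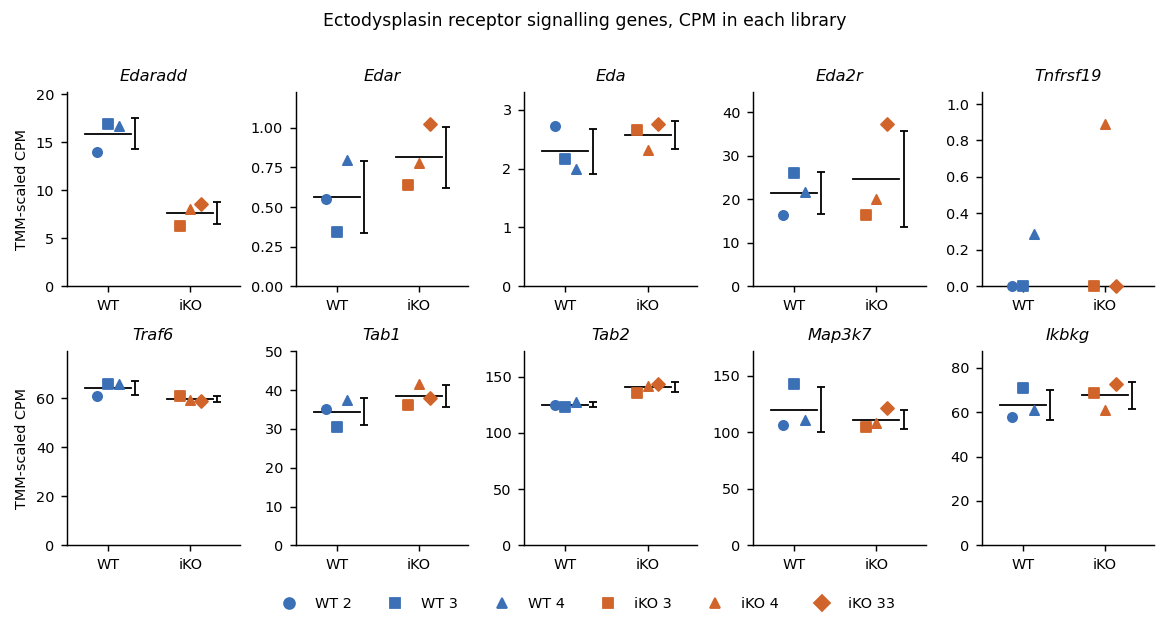
TMM-scaled CPM (vertical axes from 0) of the 10 genes in each library, WT in blue and iKO in orange; the shape of a point gives the library number, lines mark group means and side bars SD (n = 3), which are left out for Tnfrsf19. Edaradd stood at 14.0 to 16.9 CPM in WT and 6.30 to 8.55 CPM in iKO, and Tnfrsf19 was above 0 in WT 4 and iKO 4 alone.

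Edaradd lies on the minus strand of chromosome 13 from 12472632 to 12520438 (mm10), where GENCODE M21 annotates 1 transcript of 6668 exonic bases. Its RefSeq promoter window (GRCm38.p6, 250 bases before the start and 50 after it, at chr13:12520401-12520700, minus strand) is shown because the title of the study links Gata6 to Edaradd.
Edaradd promoter: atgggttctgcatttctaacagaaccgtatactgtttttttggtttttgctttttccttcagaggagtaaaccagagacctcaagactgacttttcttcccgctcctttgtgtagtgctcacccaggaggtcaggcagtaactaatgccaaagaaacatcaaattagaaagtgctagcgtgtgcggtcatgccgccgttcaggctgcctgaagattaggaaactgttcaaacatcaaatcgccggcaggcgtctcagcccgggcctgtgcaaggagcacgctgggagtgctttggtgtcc
The letters that GATA factors bind, AGATAA or AGATAG or TGATAA or TGATAG, would stand in capitals; on both strands none is in this window, which says only that these letters are not in these 300 bases. Among all 32851 promoter windows of that length, 29.8% held at least 1 of them. The 9 genes with a window in the table, Tab1 not being among them, had 14 windows, and 4 of the 14 held a GATA match, in Edar, Tab2 and Ikbkg. The stretches of Edar and of the window at the annotated start of Ikbkg are shown for comparison with Edaradd, with the GATA letters in capitals on the strand of the gene.
Edar, chr10:58675906-58675941, minus strand: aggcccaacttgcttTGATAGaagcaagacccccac
Ikbkg, chrX:74393137-74393172, plus strand: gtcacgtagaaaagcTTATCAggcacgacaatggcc
In Ikbkg the capitals are the reverse complement of TGATAA. The κB consensus, to which NF-κB binds, was searched on both strands too and was found in 1 of the 14 windows, that of Map3k7, against 8.46% of all windows. The capitals in the stretch below mark it; the match is on the strand opposite to the gene.
Map3k7, chr4:31964000-31964039, plus strand: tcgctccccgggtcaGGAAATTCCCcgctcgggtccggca

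Edar, the receptor that Edaradd serves, was scarce and its groups overlapped. It measured 0.553 CPM in WT 2, 0.342 CPM in WT 3 and 0.796 CPM in WT 4. The iKO libraries had 0.639 CPM in iKO 3, 0.777 CPM in iKO 4 and 1.02 CPM in iKO 33. WT 3 was the lowest library and iKO 33 the highest, while the other 4 were intermixed. These are 12 to 87 reads per library, and the exact 95% Poisson interval, which covers counting error only, ran from 0.286 to 0.966 CPM in WT 2 and from 0.820 to 1.26 CPM in iKO 33. The fitted log2 difference was 0.56 (SE 0.42, 95% interval -0.43 to 1.56, edgeR adjusted p = 0.586), and it was 0.27 without WT 3 and 0.91 without WT 4. Edar lies on chromosome 10 from 58600789 to 58675654, minus strand.

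The level of adaptor mRNA per receptor mRNA could be set out within each library, free of any scaling between libraries. Per kb of exon, Edaradd exceeded Edar by a factor of 13.8 in WT 2, 26.9 in WT 3 and 11.5 in WT 4. For iKO 3, iKO 4 and iKO 33 the factor was 5.37, 5.61 and 4.56. The groups did not overlap, and the level of Edaradd exceeded that of Edar in every library. With 12 to 87 Edar reads per library these factors carry large counting error. Their difference includes the lower level of Edaradd itself. The ratio of Edaradd to Traf6, whose counts are far higher, gave a tighter picture, with 0.273 to 0.303 in WT and 0.122 to 0.172 in iKO. Relative to Map3k7 the range was 0.114 to 0.146 in WT and 0.0580 to 0.0713 in iKO.

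Eda, the ligand (chromosome X, 99975606 to 100400762, plus strand), was detected in every library at a similar low level. It measured 2.72 CPM in WT 2, 2.16 CPM in WT 3 and 1.99 CPM in WT 4. The iKO values were 2.65 CPM in iKO 3, 2.31 CPM in iKO 4 and 2.75 CPM in iKO 33. WT 2 lay among the iKO libraries, so the groups overlapped. The fitted log2 difference was 0.17 (SE 0.26, 95% interval -0.43 to 0.77, edgeR adjusted p = 0.808), and it was 0.07 without WT 4 and 0.31 without WT 2. Counts per gene do not separate the splice forms that bind Edar and Eda2r.

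Eda2r, the receptor for the shorter ligand form (chromosome X, 97333840 to 97377216, minus strand), was the most abundant of the 3 receptors. It measured 16.3 CPM in WT 2, 26.1 CPM in WT 3 and 21.7 CPM in WT 4. The iKO libraries had 16.5 CPM in iKO 3, 20.1 CPM in iKO 4 and 37.2 CPM in iKO 33. A single library, iKO 33, stood above all others, and the remaining iKO libraries lay within the WT range. The log2 fold change of 0.20 (SE 0.33, edgeR adjusted p = 0.825) turned to -0.23 (SE 0.24, edgeR adjusted p = 0.756) without iKO 33, so its sign rests on that library. Eda2r transcripts exceeded those of Edar per kb of exon by a factor of 15.9 to 47.1 across the 6 libraries.

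Tnfrsf19, a related receptor also called Troy that marks epithelial stem cells in several tissues (chromosome 14, 60963875 to 61046490, minus strand), was counted in the libraries numbered 4 alone. WT 4 held 10 reads (0.284 CPM) and iKO 4 held 40 reads (0.888 CPM), and WT 2, WT 3, iKO 3 and iKO 33 held 0. For a count of 0, the exact 95% Poisson interval reached up to 0.17 CPM in WT 2 and 0.0467 CPM in WT 3. The limits were 0.118 CPM in iKO 3 and 0.0434 CPM in iKO 33. Both positive libraries measured above each of these limits. The interval of WT 4, 0.136 to 0.523 CPM, began below the limit of WT 2. The gene did not pass the count filter, so it was not tested, and 9 of the 10 genes were.

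Transcripts of the signal proteins downstream of the adaptor were at middling to high levels, and their groups lay close together. Per kb of exon they stood above 57.9% (Ikbkg) to 80.1% (Tab2) of tested genes in WT. Traf6, the ubiquitin ligase that Edaradd recruits (chromosome 2, 101678429 to 101701669), measured 60.7, 65.8 and 65.9 CPM in WT 2, WT 3 and WT 4 and 60.9, 59.1 and 58.8 CPM in iKO 3, iKO 4 and iKO 33. Its log2 fold change was -0.11 (SE 0.10, 95% interval -0.34 to 0.13, edgeR adjusted p = 0.668). WT 2 fell within the iKO range and the other WT libraries were above it.

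Tab2, which binds ubiquitin chains and brings TAK1 to TRAF6 (chromosome 10, 7905653 to 7956230), was the other gene of the set whose groups did not overlap. It measured 125, 123 and 128 CPM in WT 2, WT 3 and WT 4 and 136, 142 and 144 CPM in iKO 3, iKO 4 and iKO 33. The difference was small, a log2 fold change of 0.17 (SE 0.09, 95% interval -0.05 to 0.38), and did not pass (edgeR adjusted p = 0.443). Tab1, the activating partner of TAK1 (chromosome 15, 80133127 to 80161707), measured 35.2, 30.6 and 37.4 CPM in WT 2, WT 3 and WT 4 and 36.2, 41.7 and 37.9 CPM in iKO 3, iKO 4 and iKO 33. The groups overlapped through WT 4 and iKO 3 (log2 fold change 0.17, SE 0.13, edgeR adjusted p = 0.588; 0.09 without WT 3).

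Map3k7, which encodes the TAK1 kinase itself (chromosome 4, 31964097 to 32023467), measured 107, 143 and 111 CPM in WT 2, WT 3 and WT 4 and 105, 108 and 121 CPM in iKO 3, iKO 4 and iKO 33. WT 3 was the highest library. The log2 fold change of -0.11 (SE 0.14, edgeR adjusted p = 0.774) became 0.03 without WT 3 (edgeR adjusted p = 0.918). Ikbkg, the regulatory subunit of the IκB kinase also called NEMO (chromosome X, 74393290 to 74453854), measured 58.0, 70.9 and 60.8 CPM in WT 2, WT 3 and WT 4 and 68.6, 61.1 and 72.9 CPM in iKO 3, iKO 4 and iKO 33. Its groups overlapped almost fully (log2 fold change 0.09, SE 0.13, edgeR adjusted p = 0.787; 0.03 without WT 2 and 0.18 without WT 3). Of its exonic bases, 5.15% overlap G6pdx on the opposite strand, so its counts are uncertain to that extent, as the strand setting is not given; the other 9 genes overlap no annotated exon of another gene.

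**Figure D2:**
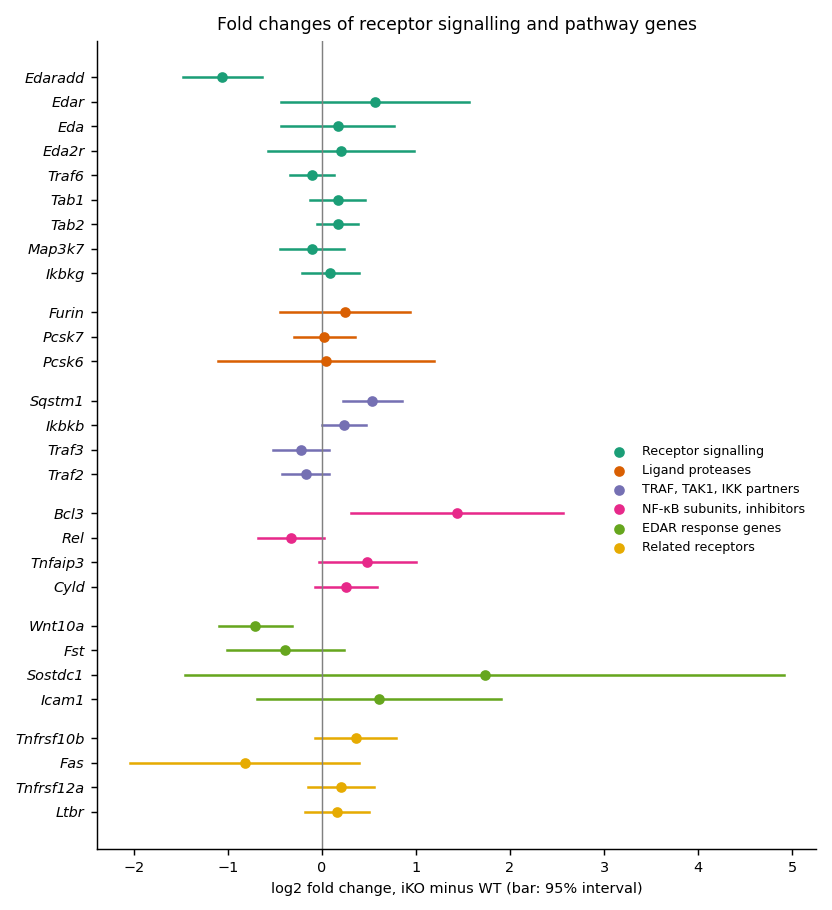
log2 fold change (iKO minus WT, horizontal axis) with its 95% interval from edgeR for the 9 tested genes and for the genes named from 5 pathway lists. Edaradd, at -1.06, lies apart from the other 8 signalling genes, which stand between -0.11 and 0.56 with intervals that include 0.

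Across the set, 0 of the 9 tested genes passed in edgeR after adjustment over all genes, where 43 of 12672 genes (0.339%) did; 1 of the 9, Edaradd, had an unadjusted p under 0.05, against 15.0% of all tested genes (7.70% lower in iKO). Limma-voom called 0 of 9, with 0.466% of all genes called. DESeq2 called Edaradd alone of the 9, with 6.12% of all genes called (2.94% lower in iKO). The groups did not overlap for 2 of 9, Edaradd (lower, as for 11.3% of all genes) and Tab2 (higher, as for 10.5%). Of the 9, 6 had a positive and 3 a negative log2 fold change, with a median of 0.17 against 0.01 over all tested genes. In the authors' deposited table, made from the same libraries, Edaradd had a log2 fold change of -0.95 (SE 0.18, adjusted p = 1.78e-05) and was likewise the only called gene of the set, with 5.90% of genes called there (2.85% lower). The lowest adjusted p of the other genes in the authors' deposited table was 0.474, for Tab2, and Tnfrsf19 has no p-value in it.

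Per kb of exon, the TAK1 complex genes had the highest levels of the set over the 6 libraries and Edar and Tnfrsf19 the lowest. Tab2 stood first with 20.1 to 23.5 CPM per kb and Map3k7 next with 16.3 to 22.3 CPM per kb, and these ranges overlapped. Tab1 followed at 9.11 to 12.4 CPM per kb. Ikbkg (7.15 to 8.99) and Traf6 (7.46 to 8.36 CPM per kb) overlapped and could not be ordered. Eda2r came next at 2.77 to 6.32 CPM per kb, above Edaradd in each library. Edaradd had 2.38 ± 0.240 CPM per kb in WT and 1.14 ± 0.176 in iKO (SD, n = 3), which placed it above 32.1% of tested genes in WT and above 22.2% in iKO. Eda stood at 0.292 to 0.403 and Edar at 0.0940 to 0.281 CPM per kb, without overlap, and Tnfrsf19 at 0 to 0.188 CPM per kb, overlapping Edar.

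**Figure D3:**
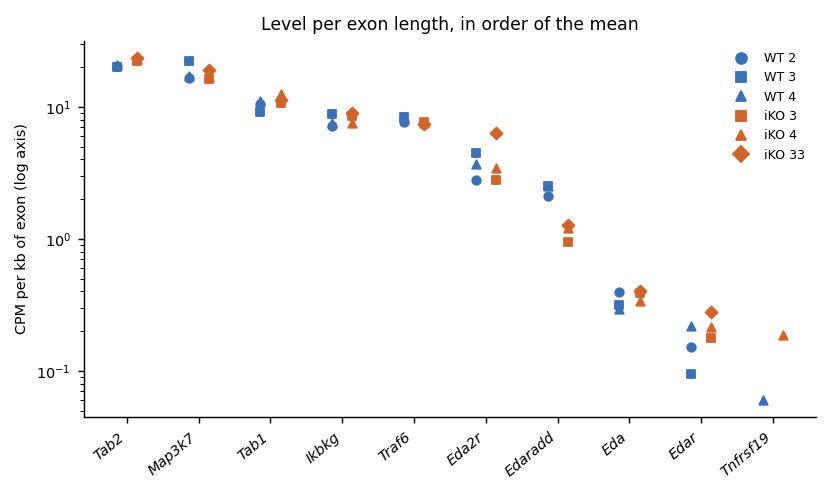
Level of each gene in CPM per kb of exon (log axis) in every library, ordered by the mean over the 6 libraries; the 4 values of 0 of Tnfrsf19 are not drawn. Levels fall from 20.1 to 23.5 for Tab2 to 0.0940 to 0.281 for Edar.

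None of the 41 tested genes listed around the receptor passed in edgeR, and 3 passed in DESeq2, where 6.12% of all genes did. Over all tested genes, 15.0% had an unadjusted p under 0.05 in edgeR and 21.9% had groups that did not overlap, and the counts of the lists below stand beside these shares. These lists had been fixed with earlier results of the data known. The proteases that release the ligand from the membrane, among them Furin, had 3 tested members of 4. Furin measured 114 ± 32.1 CPM in WT and 135 ± 44.4 CPM in iKO (SD, n = 3; log2 fold change 0.25, SE 0.29), Pcsk7 stood at 0.02 (SE 0.14) and Pcsk6 at 0.04 (SE 0.48). All 3 signs turned when 1 library was left out, that of Furin to -0.04 without iKO 4, that of Pcsk7 to -0.08 without iKO 3 and that of Pcsk6 to -0.32 without WT 4.

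Among 10 tested partners of TRAF6, TAK1 and the IκB kinase, 5 had positive and 5 negative values, with a median of 0.05. Sqstm1, the scaffold p62 that binds TRAF6, was the 1 member with an unadjusted p under 0.05: it measured 132, 153 and 138 CPM in WT 2, WT 3 and WT 4 and 220, 173 and 220 CPM in iKO 3, iKO 4 and iKO 33, without overlap. Its log2 fold change of 0.53 (SE 0.13) was called by DESeq2 (adjusted p = 0.0199) but not by edgeR (adjusted p = 0.158). The groups did not overlap for 3 of the 10, Sqstm1, Ikbkb and Traf2. Ikbkb, a catalytic subunit of the IκB kinase, stood at 0.24 (SE 0.10), and the adaptors Traf3 and Traf2, both of the family that Edaradd binds, at -0.22 (SE 0.13) and -0.17 (SE 0.10). Traf1 and Traf5 were too low to be tested.

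All 12 listed NF-κB subunits and inhibitors were tested, 4 with positive and 8 with negative values and a median of -0.05. Bcl3, a nuclear cofactor of NF-κB dimers, measured 3.73, 1.54 and 5.94 CPM in WT 2, WT 3 and WT 4 and 7.83, 12.9 and 9.47 CPM in iKO 3, iKO 4 and iKO 33. Its log2 fold change was 1.44 (SE 0.48, edgeR adjusted p = 0.237, DESeq2 adjusted p = 0.0422), and it was the 1 member with an unadjusted p under 0.05. The subunit gene Rel stood at -0.33 (SE 0.15), and the inhibitors Tnfaip3, which encodes A20, and Cyld at 0.48 (SE 0.22) and 0.26 (SE 0.14). The value of Tnfaip3 was 0.31 without WT 3. Groups did not overlap for 2 of the 12, Bcl3 and Rel.

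Of 17 genes known to respond to EDAR in skin or tooth development, 7 could be tested. Shh, Dkk4, Fgf20 and Foxi3, which mark embryonic placodes, had 0 reads in every library, where 3 reads amount to 0.0353 to 0.138 CPM. Wnt10a, a Wnt ligand of hair and tooth, measured 151, 149 and 112 CPM in WT 2, WT 3 and WT 4 and 70.9, 91.3 and 89.9 CPM in iKO 3, iKO 4 and iKO 33. Its groups did not overlap, and the log2 fold change of -0.71 (SE 0.16) was called by DESeq2 (adjusted p = 0.00776) but not by edgeR (adjusted p = 0.138). Wnt10a lies on chromosome 1 and Fst on chromosome 13, both with mostly lower values as described below. Fst, an inhibitor of activin, stood at -0.39 (SE 0.26), the adhesion gene Icam1 at 0.61 (SE 0.55) and the BMP and Wnt antagonist gene Sostdc1 at 1.73 (SE 1.35). Sostdc1 was 17.2 CPM in iKO 33 and 0.256 to 5.48 CPM elsewhere, and its value was 0.04 without iKO 33 and 3.37 without WT 2. Icam1 was 0.16 without WT 3 and 0.98 without WT 4, and Fst was -0.70 without iKO 33 and -0.18 without iKO 3. Wnt10a was the 1 of the 7 with an unadjusted p under 0.05 and the 1 whose groups did not overlap.

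Related receptors of the TNF family showed no call in either tool among 9 tested members, 7 with positive and 2 with negative values. The death receptor genes Tnfrsf10b and Fas stood at 0.36 (SE 0.18) and -0.82 (SE 0.52), and Tnfrsf12a and Ltbr at 0.20 (SE 0.15) and 0.16 (SE 0.14). With 1 library left out, Fas was -1.35 (without iKO 33) or -0.45 (without iKO 3), Ltbr 0.04 (without WT 3) and Tnfrsf12a 0.07 (without iKO 4). No member of this list had an unadjusted p under 0.05 in edgeR.

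The chromosome that carries Edaradd had lower values as a whole. Of 463 tested genes of chromosome 13, 74.9% had a negative log2 fold change and the median was -0.19, the second highest share among the 20 chromosomes with at least 20 tested genes, after chromosome 1 (78.5%, median -0.25). Over all tested genes the share was 48.8%. The median of the other chromosome 13 genes, each centred on its mean over the 6 libraries, on the log2 scale was 0.05, 0.18 and 0.13 in WT 2, WT 3 and WT 4 and -0.12, -0.14 and 0.01 in iKO 3, iKO 4 and iKO 33. In iKO 33 this chromosome 13 median was below that of every WT library, and Edaradd, at 8.55 CPM there, was too. All 8 tested genes that start within 1 Mb of Edaradd were lower in iKO, with a median of -0.92, and 1 of them, Prl2c5, passed in edgeR (adjusted p = 0.0324). Counts of Prl2c5 and its close relative Prl2c2, and of Gpr137b and its pseudogene Gpr137b-ps, are uncertain. Reads that align to several places, as between such copies, were not counted for any gene. At 1 to 5 Mb, 8 of 17 genes were lower and the median was 0.01. From 5 to 20 Mb 49 of 65 were lower with a median of -0.24, and beyond 20 Mb 281 of 372 with a median of -0.18. Prl8a9, in the range of 5 to 20 Mb, also passed in edgeR (log2 fold change -3.56, adjusted p = 0.0324), so such a call was not confined to the neighbours of Edaradd. The 95% interval of Edaradd ran from -1.48 to -0.64. It covers the error of that gene's own estimate and not the spread of genes around a median, so it decides nothing about the chromosome or the neighbours. The part of the chromosome or of its neighbours in the Edaradd result was not tested.

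**Figure D4:**
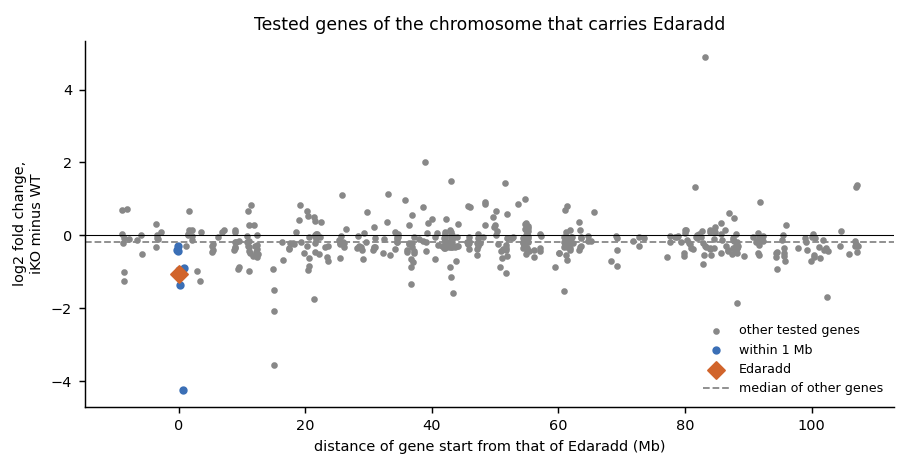
log2 fold change (iKO minus WT) of each tested gene of chromosome 13 by the distance of its start from that of Edaradd in Mb; the diamond is Edaradd, blue points are genes within 1 Mb and the dashed line is the median of the other genes. Edaradd (-1.06) and its 8 neighbours within 1 Mb (median -0.92) lie below that line, and genes at 1 to 5 Mb are spread around 0.

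The other genes of the set lay in neighbourhoods with values nearer to 0. Within 1 Mb the medians were 0.03 for Edar (9 genes), 0.02 for Eda (8), -0.22 for Traf6 (7), 0.07 for Tab1 (32), 0.23 for Tab2 (11), 0.25 for Map3k7 (5), 0.11 for Ikbkg (38) and 0.15 for Tnfrsf19 (10). Eda2r had no tested gene within that distance. The 395 tested genes of the X chromosome had a median of 0.09. Ikbkg stood at 0.09 (SE 0.13), Eda at 0.17 (SE 0.26) and Eda2r at 0.20 (SE 0.33). Tab1 and Tab2, which are not on that chromosome, stood at 0.17 (SE 0.13) and 0.17 (SE 0.09). The part of the X chromosome in these values was not tested.

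Of 10053 tested genes with a mean log2 CPM of at least 1, the 5 whose pattern over the 6 libraries was most like that of Edaradd were Zfp367, Tmem194b, D2hgdh, Sirpa and Mblac1. Likeness was the root mean square distance between log2 CPM values, each gene centred on its mean, and was 0.113 for Zfp367 and 0.177 for Mblac1. Zfp367, a zinc finger gene also on chromosome 13, measured 30.6 ± 4.45 CPM in WT and 14.9 ± 2.43 CPM in iKO (SD, n = 3), and its log2 fold change of -1.03 (SE 0.17) missed the edgeR threshold too (adjusted p = 0.0733). Sirpa, an inhibitory receptor gene of chromosome 2, measured 35.7 ± 5.10 CPM and 16.5 ± 2.18 CPM, a log2 fold change of -1.11 (SE 0.16) with an edgeR adjusted p = 0.0568. D2hgdh, a mitochondrial dehydrogenase gene of chromosome 1, stood at -0.96 (SE 0.17), Tmem194b at -0.87 (SE 0.24) and Mblac1 at -1.22 (SE 0.23). They were chosen for this pattern, so their difference is a description.

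**Figure D5:**
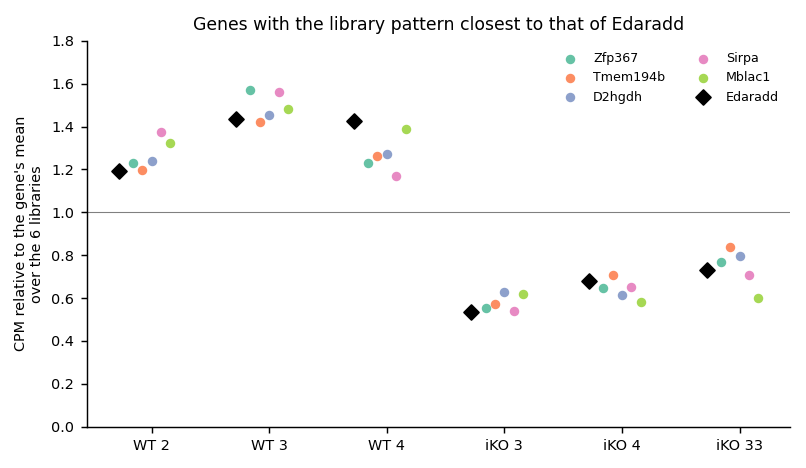
CPM of Edaradd (black diamonds) and of the 5 genes with the closest pattern, each divided by its mean over the 6 libraries (vertical axis, no unit), by library. All 6 genes lie above 1 in the 3 WT libraries and below 1 in the 3 iKO libraries.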

How the data were processed

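Counts of reads per gene symbol were deposited for 6 libraries, not normalised; TopHat2, HTSeq, DESeq2 and DESeq (no versions) and the build mm10 are named per the submitters' processing notes, and the kit (TruSeq RNA v2) per the labels' protocols. The sources used here give neither annotation nor strand setting. HTSeq's 5 summary rows were left out, 34.8% to 35.5% of counts in WT and 27.4% to 32% in iKO, without overlap. Among them, reads not aligned uniquely made up 29.5% to 30.5% of counts in WT and 21.7% to 26.5% in iKO. The part of this difference in the results was not tested. The authors' deposited comparison table gives a mean signal, log2 fold change with SE, Wald score and p-values per the file headers.

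In R 4.3.3, edgeR 4.0.16 kept genes by filterByExpr (minimum count 10), scaled by TMM and tested group as the only term with glmQLFit and glmQLFTest (robust, two-sided, Benjamini-Hochberg, 0.05). SE is the absolute log2 fold change over the square root of F; log2 CPM used a prior count of 2. DESeq2 1.42.0 and limma 3.58.1 (voom) were alternatives. Counts were simulated from the mean level of each gene, the library sizes and a spread of counts set by level alone. Changed genes were drawn from those above 5 CPM on average. On these counts edgeR found 62 of 100 genes with a 2-fold change and 99 of 100 with a 4-fold change. It made 6 false calls with 12552 genes tested. DESeq2 found 75 and 100 and made 19 false calls. Scatter of single genes around that spread was not simulated, nor was spread shared by genes within a library. The shares found need not hold for the real libraries. Libraries within a group differed beyond sampling noise (chi-square per degree of freedom at least 51.7). Exon lengths and positions come from GENCODE M21 (mm10), found for 98.3% of symbols, and promoter windows from RefSeq. Named genes were the 10 members, up to 4 of each pathway list by smallest p, and the 5 most like Edaradd. The members and lists were chosen with earlier results of these data known.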

Additional observations from a re-analysis of the deposited data

How the results depend on the processing

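The log2 fold change of Edaradd was negative in all 17 alternatives, from -1.24 to -0.94, and passed in 2: DESeq2 (-1.06, adjusted p = 2.69e-05) and a threshold of 0.1 (-1.06); under both the count of called member genes was 1 in place of 0. In the other alternatives, among them TMM replaced by RLE or upper-quartile factors and the X and Y genes left out, it stayed above the threshold. The count of called genes over the transcriptome, 43, was 775 in DESeq2, 152 at a threshold of 0.1, 76 with no count filter and 7 to 31 with 1 library left out. Of the 41 tested genes of the pathway lists, 0 were called, and 3 in DESeq2, which called 6.12% of all genes. The labels join the libraries numbered 3 and 4 across groups by number alone, and whether the numbers mark pairs is not known. Over tested genes, the difference between WT 3 and WT 4 correlated at 0.596 with that between iKO 3 and iKO 4, which is a single comparison. The main test does not use the number. With the replicate block on these 4 libraries 103 genes were called, against 4 in the same libraries without it, and Edaradd passed in neither. Signs turned, in no case past the threshold, for Eda2r (-0.39 in those 4 libraries with or without the block, and -0.23 to 0.42 with 1 library left out, the lowest without iKO 33), Ikbkg (-0.02 in the same 4 libraries, with or without the block) and Map3k7 (-0.19 to 0.03 with 1 library left out, the highest without WT 3). With the length of the longest transcript, 2 genes, Ikbkg and Traf6, changed places in the order of levels. The cause of these changes was not tested. Depth limits Edar and Tnfrsf19 most: Edar rests on 12 to 87 reads per library.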

Other observations

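Tnfrsf19 was the 1 gene of all 23420 with at least 10 reads in both libraries numbered 4 and 0 reads in the other 4 libraries; no gene had such a pattern in the libraries numbered 3. This was looked for after its counts were seen, and the cutoff of 10 reads equals its own count in WT 4. Thy1 had 9 reads in WT 4, 9 in iKO 4 and 0 in the other libraries, the same pattern just under that cutoff. That Tnfrsf19 stood alone thus depends on the cutoff.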
